A study of Mus musculus with 13 samples.

Results

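The miR-15/16 family was followed on both strands of its hairpins in 13 primary abdominal neuroblastomas of the mouse, 1 microarray per tumour. Its members were the array's mouse probe sets named for 5 guide arms (mmu-miR-15a-5p, mmu-miR-15b-5p, mmu-miR-16-5p, mmu-miR-195-5p and mmu-miR-497-5p) and 3 passenger arms (mmu-miR-15a-3p, mmu-miR-16-1-3p and mmu-miR-195-3p), 8 of 1079 mouse miRNAs on the array. The 8 were chosen by their array signal over the 13 tumours, in which well detected guide arms contrasted with dim passenger arms. That contrast is therefore described here and not tested. Names are given below without the mouse prefix.

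Both groups of tumours come from a series on TH-MYCN mice, in which a tyrosine hydroxylase promoter drives the MYCN oncogene in cells of the sympathetic lineage. The 7 deficient tumours came from mice with deficient caspase-8 and with metastasis to the bone marrow. The 6 wild-type tumours came from mice with wild-type caspase-8 and without such metastasis. Caspase-8 starts the protease cascade by which death receptors kill a cell. Because every deficient tumour had metastasized and no wild-type tumour had, genotype and metastasis cannot be told apart. Labels state neither the age of the mice nor the cells in which caspase-8 was deficient. Each tumour is labelled a biological replicate.

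A miRNA hairpin is cut into a duplex of 2 strands. One strand, the guide, is kept in an Argonaute protein and pairs with messenger RNAs through its seed, while the other, the passenger, is mostly degraded. Guides of the miR-15/16 family share a seed and are known to lower cyclins, other drivers of the G1 phase and the survival protein BCL2. The human MIR15A and MIR16-1 genes lie in a region of the DLEU2 locus that is often deleted in chronic lymphocytic leukaemia.

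The guide sequences are shown because they define the family. They were taken from RefSeq (tables for GRCm38.p6), 5′ to 3′, with the seed, bases 2 to 8, in capitals.
miR-15a-5p: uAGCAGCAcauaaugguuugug
miR-15b-5p: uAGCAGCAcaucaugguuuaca
miR-16-5p: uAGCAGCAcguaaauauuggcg
miR-195-5p: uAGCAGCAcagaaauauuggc
miR-497-5p: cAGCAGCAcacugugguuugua
All 5 guides carry the same seed. miR-16-5p and miR-195-5p have the same base at 19 positions counted from the 5′ end, the most of any guide pair, and miR-16-5p and miR-497-5p at 11, the fewest. The array's miR-195 and miR-497 probes correspond to the entries that RefSeq names miR-195a and miR-497a.

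The passenger sequences are shown because the 3 measured passengers resemble each other. Capitals mark the longest run of bases that all 3 hold.
miR-15a-3p: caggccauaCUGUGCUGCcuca
miR-16-1-3p: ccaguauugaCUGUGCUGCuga
miR-195-3p: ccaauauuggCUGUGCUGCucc
The shared run is 9 bases long. miR-16-1-3p and miR-195-3p, which come from different chromosomes, have the same base at 18 of 22 positions. The perfect complement of the seed, UGCUGCU, lies in miR-16-1-3p and miR-195-3p but not in miR-15a-3p.

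The genes lie in 3 pairs. Mir15a and Mir16-1 lie within Dleu2 on chromosome 14, Mir15b and Mir16-2 lie within Smc4 on chromosome 3, and Mir195a and Mir497 lie on chromosome 11. Mature miR-16-5p is the same molecule from both of its genes, so its signal cannot be assigned to either, whereas miR-16-1-3p is made from Mir16-1 alone.

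Levels are log2 of a miRNA's summed probe signal after each array was scaled to a common 75th percentile. Values at or below a floor of 17.2, or 4.10 on the log2 scale, were set to it. Probes differ in brightness, so levels were compared between tumours and not between miRNAs. A miRNA was tested if the scanner marked it as detected on at least 6 arrays, which 419 miRNAs and all 8 members passed. Between 338 and 469 mouse miRNAs were detected per tumour, and no spot was saturated. The arrays lay on 2 slides, the first with 5 deficient and 2 wild-type tumours and the second with 2 deficient and 4 wild-type tumours.

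**Figure D1:**
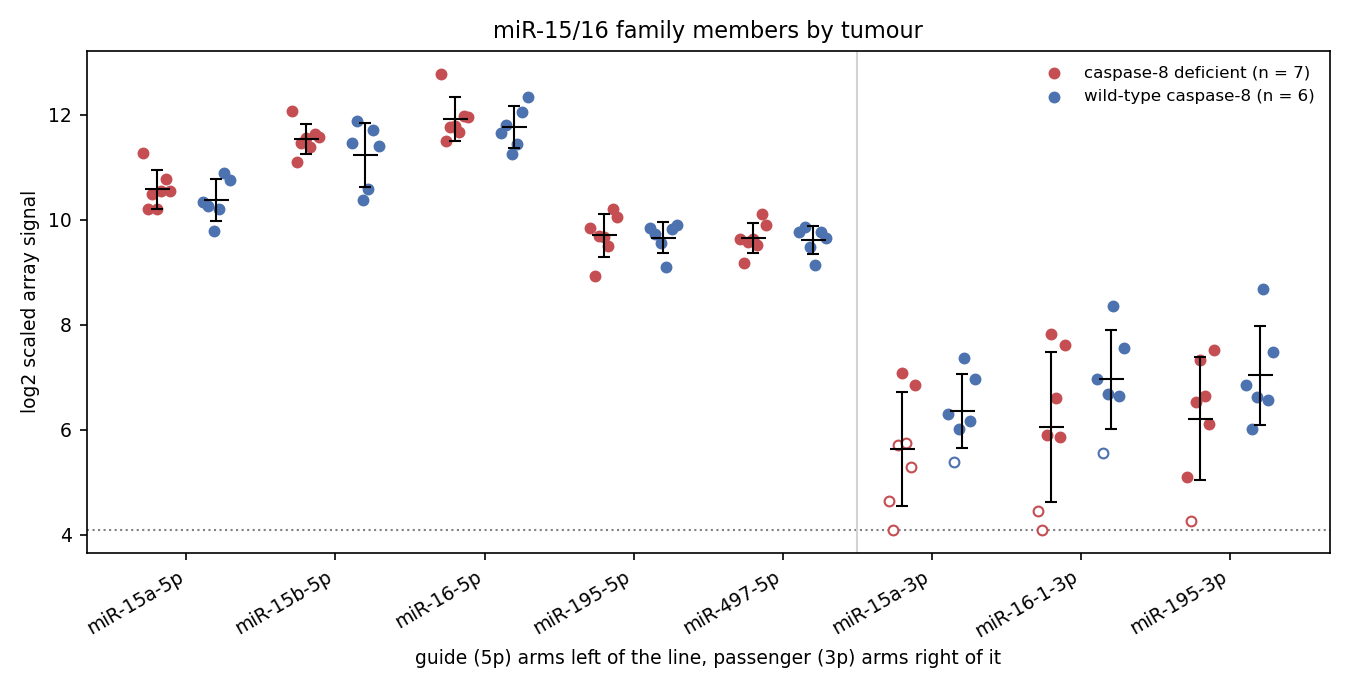
Log2 scaled array signal of each family member in each tumour (points; open where not detected), with deficient tumours in red left of wild-type tumours in blue, bars for mean ± SD and a dotted line at the floor of 4.10. Passenger arms spread more widely than guide arms and reach down to the floor, and the groups overlap for every member.

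The guide arms were detected in every tumour, and for each of them the deficient and wild-type ranges overlapped. miR-16-5p was 11.51 at its lowest, 11.78 in the median and 12.79 at its highest in deficient tumours, against 11.26, 11.73 and 12.35 in wild-type tumours. Deficient replicate 1 lay above all others, and the remaining deficient tumours lay within the wild-type range. Means were 11.92 ± 0.41 in deficient tumours (SD, n = 7) and 11.76 ± 0.40 in wild-type tumours (SD, n = 6), which differed by 0.16 (SE 0.23, limma adjusted p = 0.817).

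miR-15a-5p is made from the transcript that also holds Mir16-1. It was 10.20 at its lowest, 10.54 in the median and 11.28 at its highest in deficient tumours, against 9.78, 10.31 and 10.89 in wild-type tumours. The ranges overlapped, with deficient replicate 1 again the highest and wild-type replicate 3 the lowest. The difference was 0.21 (SE 0.22, limma adjusted p = 0.729).

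miR-15b-5p is made from the Smc4 intron together with miR-16-2. It was 11.11 at its lowest, 11.56 in the median and 12.07 at its highest in deficient tumours, against 10.37, 11.43 and 11.89 in wild-type tumours. Wild-type replicates 3 and 4 lay below all deficient tumours, and the other 4 lay within the deficient range. The difference was 0.31 (SE 0.26, limma adjusted p = 0.668), and it ran in opposite directions on the slides, at −0.24 within slide 1 and 0.80 within slide 2.

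miR-195-5p and miR-497-5p are made from 1 primary transcript. miR-195-5p was 8.94 at its lowest, 9.69 in the median and 10.20 at its highest in deficient tumours, against 9.10, 9.78 and 9.91 in wild-type tumours. miR-497-5p was 9.19, 9.63 and 10.11 in deficient tumours, against 9.14, 9.72 and 9.87 in wild-type tumours. For both, deficient replicate 6 was the highest tumour and the groups overlapped almost completely. The difference was 0.04 for miR-195-5p (SE 0.22) and 0.04 for miR-497-5p (SE 0.18), each with a limma adjusted p of 0.972. Both fell below 0 within slide 1, to −0.11 for miR-195-5p and −0.16 for miR-497-5p.

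The passenger arms were dim and differed far more from tumour to tumour. miR-195-3p was detected in 6 of 7 deficient and 6 of 6 wild-type tumours. Its level was 4.27 at its lowest, 6.53 in the median and 7.52 at its highest in deficient tumours, against 6.01, 6.74 and 8.69 in wild-type tumours. Deficient replicates 1 and 2 lay below every wild-type tumour and wild-type replicate 4 above every other tumour. Means were 6.22 ± 1.17 in deficient tumours (SD, n = 7) and 7.04 ± 0.94 in wild-type tumours (SD, n = 6), which differed by −0.83 (SE 0.54, limma adjusted p = 0.633).

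miR-16-1-3p was detected in 5 of 7 deficient and 5 of 6 wild-type tumours. It was 4.10, the floor, at its lowest, 5.91 in the median and 7.83 at its highest in deficient tumours, against 5.56, 6.82 and 8.36 in wild-type tumours. Deficient replicate 2 was at the floor and wild-type replicate 4 was again the highest, and the groups overlapped. The difference was −0.91 (SE 0.62, limma adjusted p = 0.644).

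miR-15a-3p was detected in 2 of 7 deficient and 5 of 6 wild-type tumours. It was 4.10 at its lowest, 5.72 in the median and 7.09 at its highest in deficient tumours, against 5.39, 6.24 and 7.36 in wild-type tumours. The undetected tumours had signals that the scanner did not mark as above background, so their order is uncertain. The difference was −0.73 (SE 0.48, limma adjusted p = 0.629).

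No member was called at an adjusted p of 0.05, and none of the 419 tested miRNAs was (0% called; smallest adjusted p 0.448). At an unadjusted p of 0.05, 0 of 8 members and 16 of 419 miRNAs (3.82%) passed. The deficient and wild-type ranges overlapped for all 8 members and failed to overlap for 1 of 419 miRNAs (0.239%). All 5 guides had the higher mean in deficient tumours, beside 54.2% of all tested miRNAs, with a median difference of 0.16 over the guides and 0.04 over all. miR-195-5p and miR-497-5p, each at 0.04, lay no higher than the median over all. All 3 passengers had the lower mean, beside 192 of 419 tested miRNAs, with a median difference of −0.83. Passengers moved together from tumour to tumour, as did many guide pairs, so neither set counts as separate observations. The 95% intervals ran from −0.43 to 0.86 over the guides and from −2.24 to 0.43 over the passengers. The passenger differences were smaller within slide 1, from −0.30 to −0.22, than within slide 2, from −1.17 to −0.76. They were also smaller under other summaries of the spots. From the scanner's own total gene signal they were −0.07 for miR-15a-3p, −0.22 for miR-16-1-3p and −0.48 for miR-195-3p, and with normexp background they were −0.20, −0.26 and −0.36. The normexp values carry an offset of 50 on each spot, which by itself shrinks log2 differences of dim signals.

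**Figure D2:**
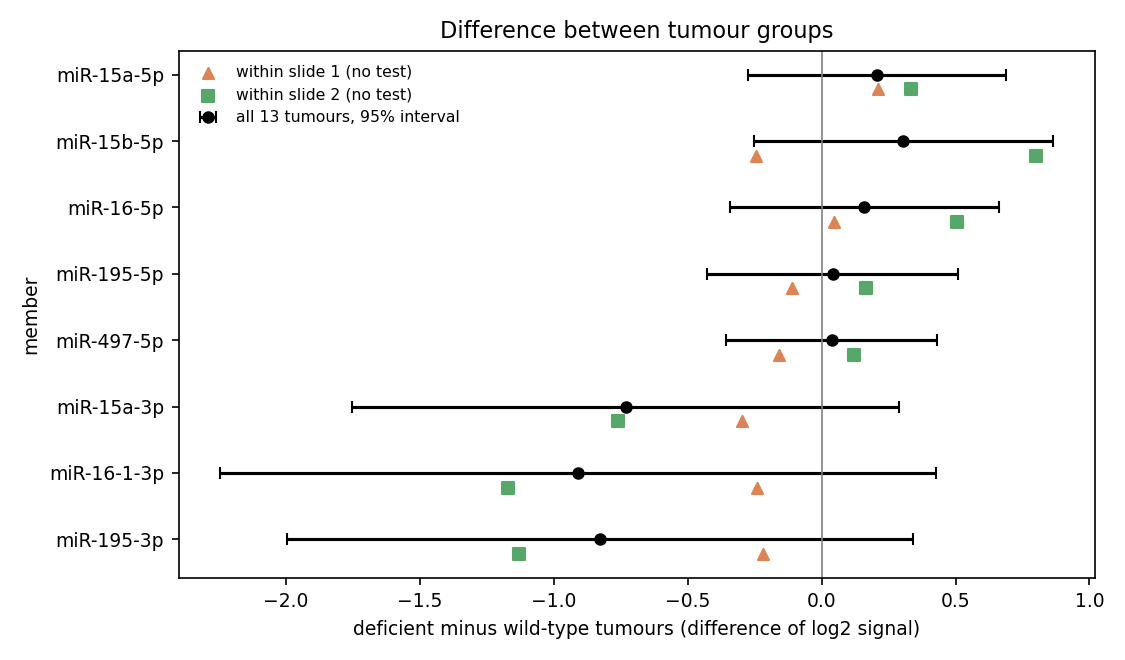
Difference of log2 signal, deficient minus wild-type tumours, for each member: black points with 95% intervals from limma over all 13 tumours, triangles within slide 1 and squares within slide 2 (values, no test). All 8 intervals include 0, and the passenger intervals are the wider ones.

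Probes of one miRNA followed each other across the tumours. Each guide was read by 2 probes, which correlated with r from 0.933 for miR-195-5p to 0.999 for miR-15a-5p. The 2 miR-195-5p probes disagreed on the sign of the group difference, at −0.04 and 0.07. Passengers were read by 2 to 4 probes, with r from 0.931 to 0.995, and all of their probes had the lower mean in deficient tumours. Single probes of miR-15a-3p were at the floor on 6 to 9 of 13 arrays, and those of miR-16-1-3p on 2 to 5. Their probe differences therefore rest partly on tied values.

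The SD over the 13 tumours was 0.27 to 0.47 for the guides and 0.97 to 1.27 for the passengers, beside a median of 0.53 over all tested miRNAs. The guides ranked between percentiles 8.35 and 41.8 of the tested miRNAs by this spread, and the passengers between percentiles 80.7 and 92.8.

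**Figure D3:**
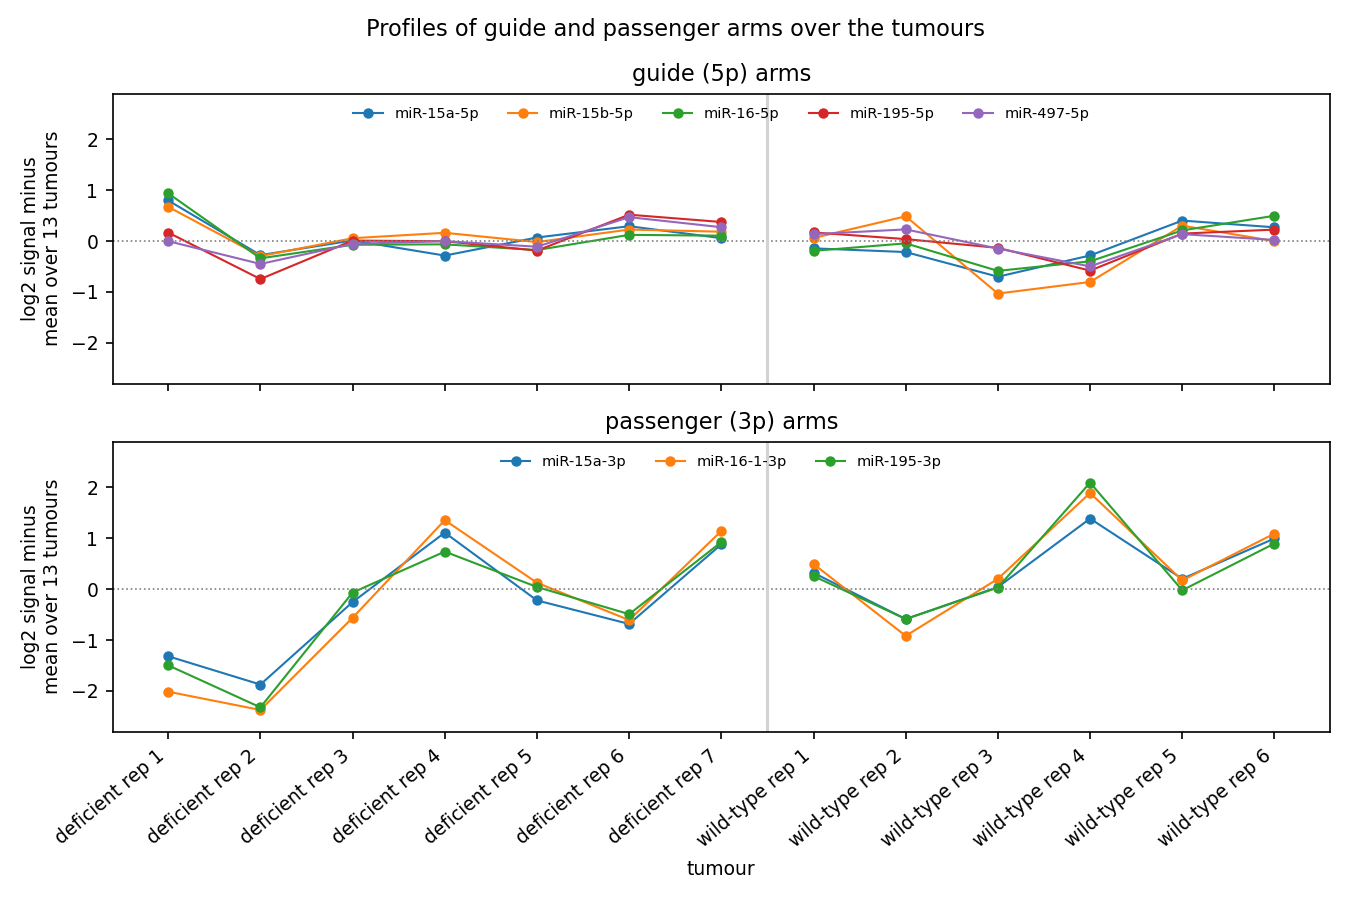
Log2 signal of each member minus its own mean over the 13 tumours, for guide arms (top) and passenger arms (bottom), with deficient tumours left of wild-type tumours. The 3 passengers trace one profile with its low point in deficient replicate 2 and its high point in wild-type replicate 4, and the guides trace a flatter one.

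Guides that share a transcript varied together. Over the 13 tumours, miR-195-5p and miR-497-5p correlated with r = 0.937 and rho = 0.879 (adjusted permutation p = 1e-04 for r, from a raw p of 1e-05, the smallest that 100000 permutations can give). miR-15a-5p and miR-16-5p correlated with r = 0.914 and rho = 0.824 (adjusted permutation p = 0.0003 for r). miR-15b-5p and miR-16-5p correlated with r = 0.762 and rho = 0.791 (adjusted permutation p = 0.0109 for r). All 3 pairs kept an r above 0.65 without the 2 tumours farthest from the median of the first miRNA, at 0.854, 0.784 and 0.672 in that order. Within slides, r was 0.960 and 0.953 on slides 1 and 2 for miR-195-5p with miR-497-5p. It was 0.726 and 0.950 for miR-15a-5p with miR-16-5p, and 0.722 and 0.889 for miR-15b-5p with miR-16-5p.

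Guides from different transcripts also varied together, with r from 0.406 to 0.737. Of the 10 guide pairs, 5 passed an adjusted permutation p of 0.05 for r, the 3 pairs above and 2 from different transcripts. By rank, 9 of the 10 passed an adjusted permutation p of 0.05 for rho, all but miR-15a-5p with miR-497-5p (adjusted permutation p = 0.124). miR-15a-5p and miR-15b-5p correlated with r = 0.737 and rho = 0.610 (adjusted permutation p = 0.0109 for r), but r was 0.407 without the 2 farthest tumours, 0.227 within slide 1 and 0.868 within slide 2. This call was lost without wild-type replicate 3 (adjusted permutation p = 0.0654). miR-15b-5p and miR-497-5p correlated with r = 0.652 and rho = 0.731 (adjusted permutation p = 0.033 for r), with 0.548 without the 2 farthest tumours, 0.823 within slide 1 and 0.723 within slide 2. It was lost without wild-type replicate 2 (adjusted permutation p = 0.0517) or wild-type replicate 4 (adjusted permutation p = 0.154). In the other 5 pairs, each of miR-195-5p or miR-497-5p with a guide of another transcript, r lay between 0.406 and 0.600 and adjusted permutation p between 0.0502 and 0.169. Some of these were closer on part of the tumours. Within slide 1, miR-16-5p had r of 0.895 with miR-195-5p and 0.888 with miR-497-5p, above its 0.726 with miR-15a-5p and 0.722 with miR-15b-5p. Whether pairs of one transcript correlate more than the others was not tested.

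The passengers followed each other and not their guides. This contrast chose the members, so it is given without a test. Between passengers, r over the 13 tumours was 0.968 to 0.987 and rho was 0.951 to 0.984, also where the hairpins lie on different chromosomes. Between the arms of one hairpin, r was −0.227 for miR-15a, −0.239 for miR-16 and 0.120 for miR-195, with rho of −0.302, −0.187 and 0.088. In deficient replicate 1 the 2 arms of miR-16 lay at opposite ends. It held the highest miR-16-5p of all tumours, at 12.79, and the second lowest miR-16-1-3p, at 4.46, where it was not detected.

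The near-zero values over all tumours joined opposite values on the slides. Between arms of one hairpin, r was 0.355 to 0.751 over the 7 tumours of slide 1 and −0.674 to −0.555 over the 6 of slide 2. Between passengers, it was 0.973 to 0.980 on slide 1 and 0.956 to 0.994 on slide 2.

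**Figure D4:**
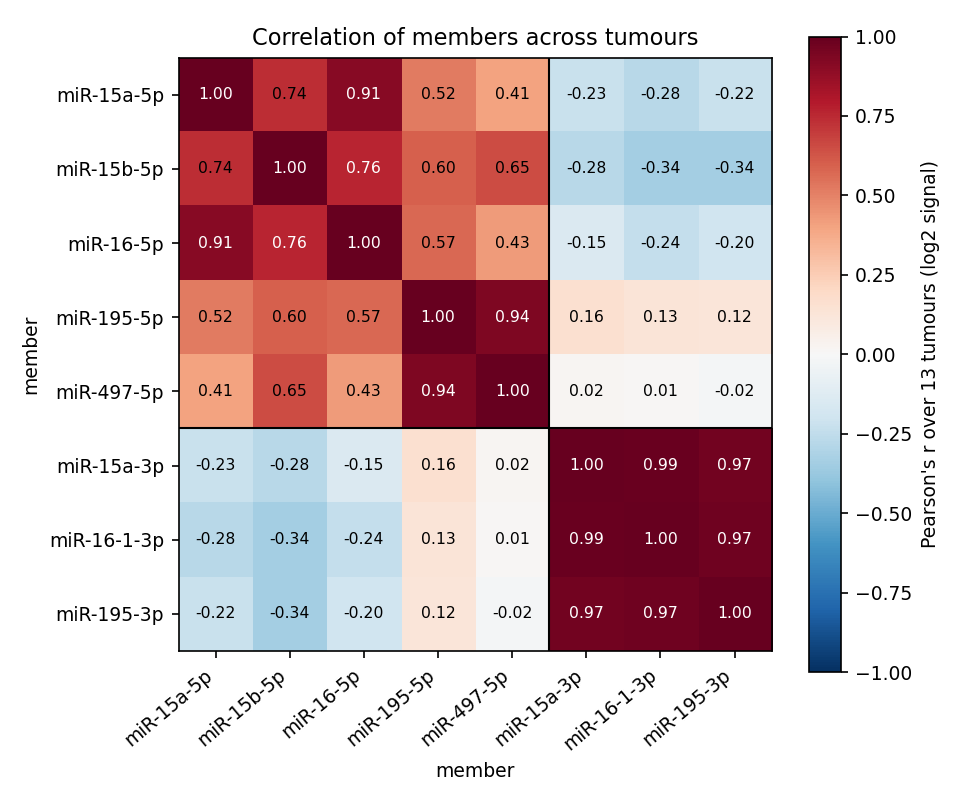
Pearson's r of log2 signal over the 13 tumours for each pair of the 8 members, red above 0 and blue below, with black lines between guide and passenger arms. Passengers form one block with r of at least 0.968, and guide with passenger values lie between −0.34 and 0.16.

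The passengers' profile was shared by other probe sets on the array. Of 411 tested miRNAs outside the family, 32 (7.79%) correlated with the mean of the 3 passengers at r of at least 0.9, and 0 did so with the mean of the 5 guides. Of these 32, 16 were named miR-297, miR-466, miR-467 or miR-669, beside 24 of all 411. Many members of these families lie in a large mouse cluster in Sfmbt2. The count is by name and does not place each of the 16 in that cluster, and miR-669n among them is made from chromosome 3. By r, the miRNAs closest to miR-15a-3p were miR-672-5p, miR-338-5p and miR-669f-5p, those closest to miR-16-1-3p were miR-669f-5p, miR-669b-5p and miR-467c-5p, and those closest to miR-195-3p were miR-669b-5p, miR-467c-5p and miR-1187. Their r over the 13 tumours lay between 0.978 and 0.993.

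A probe set for a viral miRNA, mghv-miR-M1-2-5p of a murine gammaherpesvirus, also followed the passengers. It was examined with its earlier results known, and no other viral probe set was compared with the passengers. It was detected on all 13 arrays, at 5.51, 8.31 and 9.79 (lowest, median and highest) in deficient tumours, against 8.25, 8.95 and 10.64 in wild-type tumours. It was lowest in deficient replicate 2 and highest in wild-type replicate 4, the tumours that were also extreme for miR-16-1-3p and miR-195-3p. Its r was 0.975 with miR-15a-3p, 0.971 with miR-16-1-3p and 0.979 with miR-195-3p, and its rho was 0.995, 0.978 and 0.934. These values describe 1 shared profile, since the 3 passengers follow each other, and no test is given. Within slides these r values were 0.940 to 0.978 on slide 1 and 0.978 to 0.996 on slide 2, and without the 2 tumours farthest in viral signal they were 0.956 to 0.970. With the guides, its r lay between −0.280 and 0.208 over all tumours, joining 0.429 to 0.812 on slide 1 and −0.671 to −0.509 on slide 2. What part this shared profile has in the passenger values was not tested.

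Number of detected miRNAs moved with the passengers more loosely, with r of 0.567, 0.564 and 0.517 for miR-15a-3p, miR-16-1-3p and miR-195-3p. The permutation p values for r, adjusted over 80 relations of members with 10 measures of the arrays, were 0.233, 0.233 and 0.275.

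Markers of other cell types moved with some of the guides. In bulk tumour RNA, fewer cells of a type and less RNA per cell cannot be told apart. Adjusted permutation p values for the marker lists were taken over the 80 relations, which include those of the viral probe set. The viral relations were examined with earlier results known, and their low p values make the adjusted p of the other relations smaller. The marker relations were not adjusted without them, so no marker relation counts as passing. For miR-15a-5p, r with the mean of 4 vessel and smooth muscle miRNAs was 0.781 and rho 0.791 (adjusted permutation p = 0.0256 for r), with 0.710 without the 2 farthest tumours and 0.919 and 0.909 on slides 1 and 2. That list holds miR-126-3p, a miRNA of endothelium. The list's summed signal was 10.40, 11.93 and 12.26 on the log2 scale (lowest, median and highest) in deficient tumours, against 10.75, 11.29 and 11.63 in wild-type tumours. All 4 of its members had the higher mean in deficient tumours, with a median difference of 0.39, beside 54.2% of all tested miRNAs, and 0 were called. For miR-16-5p and miR-195-5p, r with this list was 0.700 and 0.715 (adjusted permutation p = 0.0446 for each), beside rho of 0.709 and 0.621. Without the 2 farthest tumours these r values were 0.69 and 0.90, and within slides they lay between 0.666 and 0.965.

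With 4 fibroblast and mesenchyme miRNAs, among them miR-199a-3p, r was 0.712 for miR-15a-5p, 0.746 for miR-16-5p and 0.714 for miR-195-5p, with rho of 0.687, 0.791 and 0.709. The adjusted permutation p values for r were 0.0469, 0.0446 and 0.0446. Without the 2 farthest tumours r was 0.764, 0.709 and 0.567, and within slides it lay between 0.594 and 0.935. Their summed signal was 9.96, 10.80 and 11.18 in deficient tumours, against 10.10, 10.58 and 11.30 in wild-type tumours. Again 0 of 4 members were called.

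The 3 red cell miRNAs on the array, among them miR-451, had r of 0.732 with miR-15a-5p and 0.751 with miR-16-5p (rho 0.516 and 0.451, adjusted permutation p = 0.0446 for r in each). These rested on a few tumours, with r of 0.266 and 0.382 without the 2 farthest. Within slide 1, r was 0.422 for miR-15a-5p and −0.142 for miR-16-5p, and within slide 2 it was 0.779 and 0.881. Their summed signal was 14.29, 14.83 and 16.35 in deficient tumours, against 12.29, 13.87 and 16.08 in wild-type tumours, and deficient replicate 1 was the highest of all 13. All 3 had the higher mean in deficient tumours, with a median difference of 0.95, and 0 were called.

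With the leukocyte list, which holds miR-142-3p, miR-15a-5p had r of 0.732 and rho of 0.687 (adjusted permutation p = 0.0446 for r), and r of 0.503 without the 2 farthest tumours, 0.823 within slide 1 and 0.801 within slide 2. The list's sum was 9.67, 10.21 and 11.99 in deficient tumours, against 9.35, 10.48 and 12.20 in wild-type tumours. For miR-15b-5p and miR-497-5p, the highest r of any list over the 13 tumours was 0.554 and 0.541, both with the vessel list. The adjusted permutation p values for r were 0.24 and 0.26. Without the 2 farthest tumours these r values were 0.715 and 0.809. On slides 1 and 2 they were 0.116 and 0.921 for miR-15b-5p, and 0.543 and 0.589 for miR-497-5p. The skeletal muscle list, which holds miR-133b-3p, had r of 0.442 to 0.526 with the passengers and no adjusted permutation p for r below 0.274. By rank it was closer, with rho of 0.725 for miR-15a-3p, 0.709 for miR-16-1-3p and 0.632 for miR-195-3p. The adjusted permutation p values for rho were 0.0836, 0.0836 and 0.159. Its sum was 6.47, 7.25 and 13.13 in deficient tumours, against 7.35, 8.34 and 11.81 in wild-type tumours. By rank, the lowest adjusted permutation p for rho of a guide with a list was 0.0323. It was shared by miR-15a-5p with the vessel list and miR-16-5p with the fibroblast list. This adjustment also includes the viral relations, so neither pair counts as passing. The part of these cell types in the guide levels was not tested. All 6 miRNAs of the neuron and neuroblast list, which holds miR-7a-5p, were detected on every array, with a summed signal of 12.69, 13.33 and 13.42 in deficient tumours against 12.78, 13.48 and 13.85 in wild-type tumours.

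Each guide's nearest miRNAs outside the family were named by r over the 13 tumours, as a description. miR-15b-5p lay closest to miR-93-5p (0.929), miR-106b-5p (0.928) and miR-130a-3p (0.909). The first 2 of these are made from 1 intron of Mcm7. miR-15a-5p lay closest to let-7i-5p (0.843), miR-425-5p (0.841) and miR-142-3p (0.801), and miR-16-5p to miR-199a-3p (0.794), miR-144-5p (0.780) and miR-425-5p (0.777). miR-151-5p was the nearest of both miR-195-5p (0.871) and miR-497-5p (0.880). These were followed by miR-199a-3p (0.832) and miR-30a-3p (0.788) for miR-195-5p, and by miR-30e-3p (0.786) and miR-340-3p (0.745) for miR-497-5p.

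The remaining arms of the family's hairpins were barely measured. Their sequences are shown for comparison with the passengers above, with capitals for the 8-base run that miR-16-2-3p shares with all 3.
miR-16-2-3p: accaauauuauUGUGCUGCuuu
miR-15b-3p: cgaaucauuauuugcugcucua
miR-497-3p: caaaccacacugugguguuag
miR-15b-3p and miR-497-3p do not hold this run. The complement of the guide seed lies in miR-16-2-3p and miR-15b-3p. miR-15b-3p was detected in 2 deficient tumours and 1 wild-type tumour, miR-16-2-3p in 1 deficient and 1 wild-type tumour, and miR-497-3p in none. They did not pass the filter and were not tested.

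Outside the family's hairpins, 2 array miRNAs were found to share bases 2 to 7 with the guides, among the 844 of 1079 for which RefSeq held a sequence.
miR-322-5p: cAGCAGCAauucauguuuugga
miR-503-5p: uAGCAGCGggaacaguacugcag
Both are made from chromosome X, and bases 2 to 8 are in capitals. miR-322-5p, which has the full seed, was detected on all 13 arrays and was 8.59 ± 0.60 in deficient tumours (SD, n = 7) and 8.56 ± 0.36 in wild-type tumours (SD, n = 6), differing by 0.03 (SE 0.28, limma adjusted p = 0.990). miR-503-5p, which differs in the last base of the seed, was detected on 11 arrays and was 5.30 ± 0.87 in deficient tumours and 5.82 ± 1.08 in wild-type tumours, differing by −0.52 (SE 0.50, limma adjusted p = 0.684). miR-1907, which is classed with this seed family and whose sequence was not read here, was detected in 6 deficient tumours and 3 wild-type tumours. It was 5.89 ± 0.57 in deficient tumours (SD, n = 7) and 4.81 ± 0.77 in wild-type tumours (SD, n = 6). The difference was 1.08 (SE 0.35), with a limma p of 0.00861 unadjusted and 0.589 adjusted. The groups overlapped, and the difference was 0.12 with 4 times the floor and 0.09 with normexp background. Both settings by themselves shrink log2 differences of dim signals.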

How the data were processed

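Total RNA, extracted with Trizol, was labelled with Cy3 (100 ng per tumour) and measured on 1-colour Agilent miRNA arrays, per the labels' protocols. The deposited intensity values are the scanner's background-corrected spot signals, made with Feature Extraction 10.7.3.1 per the file headers and 10.5.1.1 per the submitters' processing notes. The deposited log2 values of the series table, whose centring is not stated, served as an alternative. Spots marked as outliers and 2164 control spots per array were left out. Signals were averaged per probe, summed per miRNA, scaled by each array's 75th percentile over the 294 miRNAs detected on all arrays, floored at percentile 1 of detected values, and taken to log2. Tests used limma 3.58.1 in R 4.3.3, two-sided, with Benjamini-Hochberg adjustment over 419 miRNAs. Correlations used 100000 two-sided permutations, adjusted over 10 guide pairs or 80 relations with array measures, with scipy 1.17.1. On simulated data, the fit recovered 47.2% of log2 changes of 1 and 87.6% of changes of 2. There 40 of 419 miRNAs were changed, and each miRNA was drawn independently. These are averages over miRNAs of all spreads. Recovery at the passengers' wider spread was not measured separately. Chromosomes and sequences came from RefSeq. The number of arrays limits the precision. Scaling, background, filters, slide, a replicate block and left-out tumours were varied.

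The text names the 8 members, the other arms, miRNAs sharing bases 2 to 7, the 3 closest miRNAs of each guide and 1 miRNA of each marker list, that of highest array signal (a ranking of probes, not of amounts). The passengers' closest miRNAs were added after their values were seen. Members and lists were chosen with earlier results of these data known.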

Additional observations from a re-analysis of the deposited data

Results flagged for a closer look

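miR-16-5p stood apart in deficient replicate 1, at 12.79 on the log2 scale. Its gap to the next deficient tumour was 0.639 of the group's whole range, beyond the limit for 7 samples, and it was the one such value among 16 tests of a member in a group, where chance gives about 1 in 20. miR-15a-5p was also highest there, at 11.28, as was the red cell list. Without this tumour the miR-16-5p difference was 0.01.

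The viral probe set mghv-miR-M1-2-5p lies outside the mouse miRNAs that the group comparison used, and it was detected on 13 of 13 arrays. Of 57 probe set names that are not of the mouse, 13 were detected on at least 1 array. Others detected on 13 of 13 arrays were mcmv-miR-M23-1-3p, mcmv-miR-M23-1-5p, mcmv-miR-m88-1, mghv-miR-M1-2-3p and mghv-miR-M1-3*. These were not compared with the passengers.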

How the results depend on the processing

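No miRNA was called by limma in any setting run, with 9 to 63 at an unadjusted p of 0.05. Of 221 member differences under the alternative settings, 207 were kept, including all 81 of the passengers. A tested difference was kept if its direction and side of the threshold held. A within-slide difference had no test and was kept if its direction held and it moved by less than the member's SD over the tumours. Sizes of the passenger differences moved: from −0.972 without deficient replicate 4 to −0.0712 with total gene signal for miR-15a-3p, from −1.20 without deficient replicate 4 to −0.224 with total gene signal for miR-16-1-3p, and from −1.13 within slide 2 to −0.218 within slide 1 for miR-195-3p. Signs turned for 3 guides. miR-15b-5p was −0.243 within slide 1 and 0.801 within slide 2. miR-195-5p was −0.110 within slide 1. miR-497-5p was −0.157 within slide 1, −0.0236 with slide as a block and −0.00468 with quantile normalization. Leaving out 1 tumour gave −0.0703 to 0.169 for miR-195-5p and −0.0577 to 0.116 for miR-497-5p, with values below 0 without wild-type replicate 4 (−0.0703 and −0.0577), deficient replicate 6 (−0.0419 and −0.0375) and deficient replicate 7 (−0.0180 and −0.00459). It gave 0.0893 to 0.310 for miR-15a-5p, 0.132 to 0.436 for miR-15b-5p, 0.0149 to 0.276 for miR-16-5p, −0.972 to −0.474 for miR-15a-3p, −1.20 to −0.582 for miR-16-1-3p and −1.04 to −0.497 for miR-195-3p.

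Replicate numbers did not pair the tumours in general: same-numbered deviations correlated with r of −0.22 to 0.19, and 1 of 6 tumours was closest to its own number. For miR-15a-3p and miR-16-1-3p, however, replicate 2 was the lowest and replicate 4 the highest tumour in each group. Whether the numbers pair the tumours for the passengers was not tested. With a replicate block, in which deficient replicate 7 has no partner, miR-195-5p was −0.0180 and miR-497-5p −0.00459. The passengers were −0.933 (miR-15a-3p), −1.17 (miR-16-1-3p) and −1.04 (miR-195-3p), with unadjusted limma p of 0.00891, 0.00631 and 0.00854 and adjusted p of 0.113, 0.0942 and 0.112. Here 0 miRNAs were called, with 63 at an unadjusted p of 0.05 (smallest adjusted p 0.0794).

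Of 10 guide pairs, 10 passed without scaling, which leaves each array's brightness in all its values, 8 without deficient replicate 1, and 4 to 7 under the other settings. With normexp background, r between arms of one hairpin was −0.595 for miR-15a, −0.579 for miR-16 and −0.291 for miR-195, and without scaling it was 0.226 to 0.439. Between passengers, r was 0.795 to 0.957 with normexp background and 0.863 to 0.969 with the mean of log2 probe levels. Without scaling it was 0.967 to 0.985. The lowest value in the first 2 settings was that of miR-15a-3p with miR-195-3p. The cause was not tested. Alternatives for these arms were chosen after seeing the data.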
